A study of Mus musculus with 2 samples.

Results

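The enzymes of glycolysis and gluconeogenesis were described in the liver of mice with and without a knockout of miR-182-5p. The members are the genes that the deposited annotation assigns to the KEGG pathway glycolysis and gluconeogenesis, without the alcohol and aldehyde dehydrogenases (names starting Adh or Aldh). They number 50 of the 34745 listed genes, and 14 dehydrogenase genes of the 64 pathway genes were left out. RNA-seq of the liver was compared between mice heterozygous for a miR-182-5p knockout (KO), in which an intact allele is left, and wild-type (WT) mice. All mice were males of 8 to 10 weeks, and the livers were taken on the third day after 2/3 partial hepatectomy (PH), which took away 70% of the organ. Each genotype is represented by 1 library, and how many mice went into a library is not given in the sources used here. The question of the comparison was how loss of miR-182-5p changes the transcriptome of the regenerating liver.

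Glycolysis splits glucose into pyruvate, and gluconeogenesis runs most of the same reactions backwards to make glucose from lactate, amino acids and glycerol. The pathways differ at 3 points that run in a single direction. The phosphorylation of glucose, phosphofructokinase and pyruvate kinase drive glycolysis, and PEP carboxykinase, fructose bisphosphatase and glucose 6-phosphatase drive gluconeogenesis. The steps between them are shared. The liver expresses its own isozymes at several steps (among them *Pfkl* and *Pklr*) and is the main site of gluconeogenesis, which the liver remnant has to sustain after PH.

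miR-182-5p pairs with target transcripts through its seed, bases 2 to 8, so its sequence is shown with the seed in capitals. The mature sequence (RefSeq, GRCm38.p6, chr6:30165962-30165986, minus strand) reads 5′ to 3′:
miR-182-5p: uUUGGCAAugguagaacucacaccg
The DNA match to the seed is TTGCCAA. It occurs in the annotated 3′ UTR of 1 of the 50 members (2%), *Aldoc*, against 10.97% of all 20743 genes with a 3′ UTR in GENCODE M21. The longer match TTGCCAAA occurs in 0 of the 50 members and in 4.26% of all genes. UTR lengths were not equalised, and a match of letters does not show a site that is used. The match in *Aldoc*, which encodes the brain-type aldolase, starts at base 847 of its UTR:
*Aldoc* UTR: tgtctagaagcTTGCCAAgggctatgacc
*Aldoc* itself had 39 counts in KO and 77 in WT, a log2 fold change of -0.39 whose counting interval (-0.98 to 0.18) holds 0.

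The KO library held 13247497 counts and the WT library 13163348. Mitochondrially encoded mRNAs (13 genes) accounted for 51.7% of all counts in KO but 31.0% in WT, so the counts left for other genes differ. Fold changes are therefore given as log2 of KO over WT after TMM scaling, which set the library sizes to 10754630 (KO) and 16214544 (WT) and the median of all 13561 tested genes to 0.00. A gene with equal raw counts is thus higher in KO on this scale. With total counts instead, the median of all tested genes was -0.60. *Mir182*, the targeted gene, was not analysed here, so its level was not checked in either library. As a check of the tissue, *Alb*, encoding albumin, stood at 10010 FPKM in KO and 15903 FPKM in WT. The 4 Y-linked genes examined had 85 to 298 counts in KO and 108 to 380 in WT, and *Xist* had 19 counts in KO and 0 in WT. The libraries differed in circadian clock genes, which were added after the values were seen. By the limits given below, 6 of 8 output and repressor genes were called higher in KO (median log2 fold change 1.45), beside 8.27% of all genes tested. Of 3 activator genes, 2 were called lower, beside 8.64% of all genes. The time of day of collection and the genotype cannot be told apart here, and several metabolic enzymes are known to vary over the day. In bulk liver, fewer cells of a type and less RNA per cell cannot be told apart either.

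With 1 library per genotype no test of the genotype is possible, and no difference below was compared with a spread between replicates. Genes were called higher or lower when the log2 fold change was at least 1 in size and the exact 95% interval was clear of 0. That interval covers counting error only, and no difference between mice. Of the 50 members, 39 had at least 10 counts over both libraries and entered the comparison, 5 had 1 to 9 counts and 6 had no count.

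Few enzymes of the pathway passed the 2-fold limit. Only *Hk1* and *Ldhb* were called higher in KO, which is 2 of 39 members (5.13%) against 8.27% of all genes tested. Only *Tpi1* and *Hkdc1* were called lower, again 2 of 39 (5.13%) against 8.64% of all genes. At a 1.5-fold limit, 4 members were higher (10.3%, against 15.3% of all genes) and 9 were lower (23.1%, against 15.7%). The 4 were *Gpi1*, *Adpgk*, *Hk1* and *Ldhb*, and the 9 were *Tpi1*, *Ldha*, *Pgam1*, *Pgk1*, *Eno1*, *Bpgm*, *Minpp1*, *Pck2* and *Hkdc1*. Of these 9, 4 catalyse consecutive or nearly consecutive shared reactions from triose phosphate to PEP, and *Ldha* acts on the pyruvate that follows.

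The median log2 fold change was -0.09 over the 39 members and 0.00 over all genes tested, with 18 members above 0 and 21 below. With the 2 tested members that had 3 counts or fewer in a library set to a floor of 3 counts, the members' median was -0.10. By class, it was 0.12 over the 11 glycolytic enzymes, 0.19 over 5 tested gluconeogenic enzymes, -0.22 over 10 tested shared enzymes and -0.42 over 13 tested enzymes of side and exit steps. The enzymes of the one-way steps in the opposite directions thus had similar medians, 0.07 apart. The classes have few genes, and the values within each ranged much more widely than the medians lay apart. The counting interval held 0 for 16 of the 39 members, beside 6508 of all 13561 genes tested. With total counts, 15 members were called lower and 2 higher, beside 3407 genes lower and 489 higher in all, against 1171 lower and 1121 higher with TMM. The directions given here are therefore relative to the other genes of each library.

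**Figure D1:**
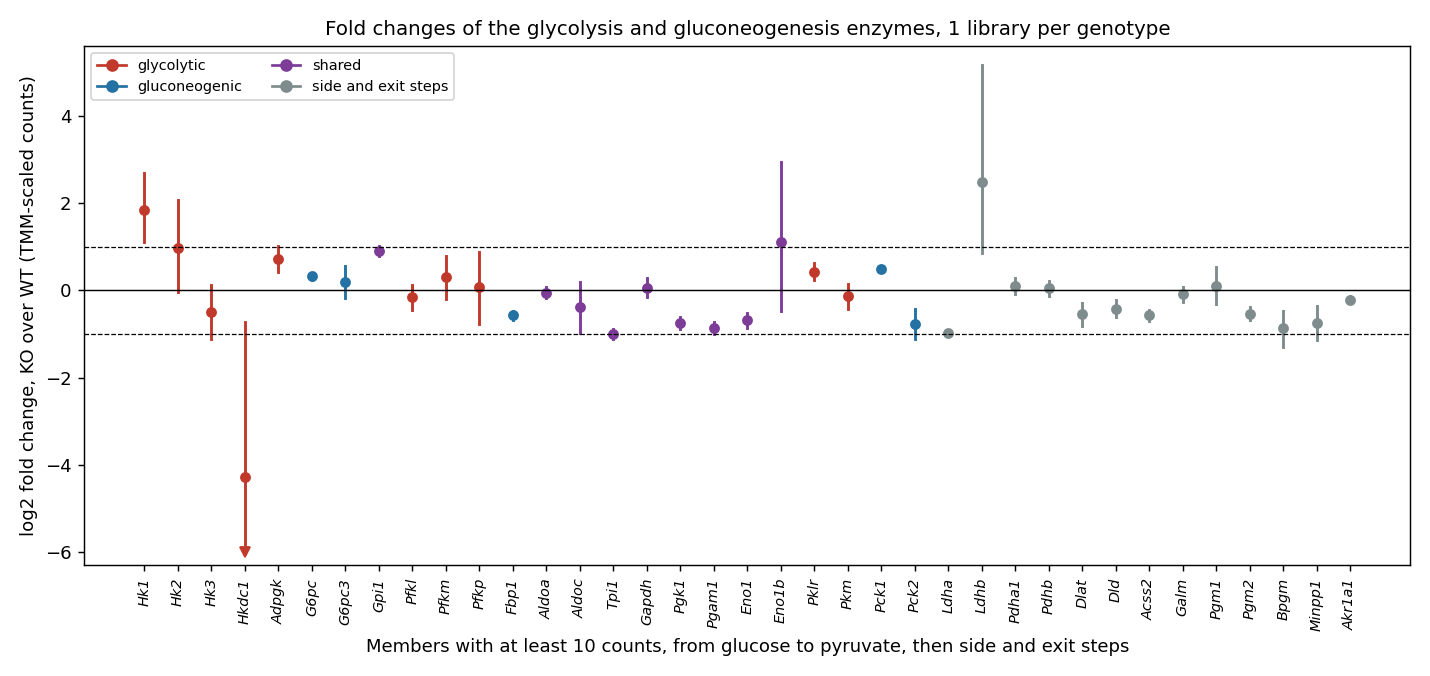
Log2 fold change of KO over WT (y axis, TMM-scaled counts) for 37 tested members in the order of the pathway (x axis), with 1 library per genotype. Points are values, bars are exact 95% counting intervals (cut at the arrowhead for *Hkdc1*, which had 0 counts in KO), colours are classes and dashed lines mark the 2-fold limits. *Tpi1*, *Pgk1*, *Pgam1*, *Eno1* and *Ldha* lie between -0.69 and -1.004, while *Gpi1* lies at 0.90.

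Hexokinases trap glucose in the cell by phosphorylating it. *Hk1*, encoding a high-affinity hexokinase of many tissues (chr10:62268855-62379908), had 51 counts in KO and 21 in WT, a log2 fold change of 1.84 (95% interval 1.11 to 2.68). Its FPKM was 0.311 in KO and 0.129 in WT, so the rise was in a gene of very low level. Its neighbour on the same strand of chromosome 10, *Hkdc1*, a further hexokinase gene, was listed at 0 counts in KO and 11 in WT, which is at least 2.43-fold lower when the KO library is set to a floor of 3 counts.

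*Hk2* and *Hk3*, the other high-affinity hexokinases, were scarce as well. *Hk2*, which is known to be induced in growing and insulin-treated cells, had 20 counts in KO and 15 in WT (log2 fold change 0.98, interval -0.03 to 2.08). *Hk3*, expressed mainly in myeloid cells, had 34 counts in KO and 72 in WT (-0.49, interval -1.12 to 0.12). Neither was separated from 0 at this depth. *Adpgk*, encoding a kinase of glucose that uses ADP, had 201 counts (6.14 FPKM) in KO and 183 counts (5.63 FPKM) in WT, a log2 fold change of 0.73 (0.43 to 1.02).

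Phosphofructokinase commits the sugar to glycolysis, and none of its 3 genes was called. *Pfkl*, the liver type, had 170 counts (2.63 FPKM) in KO and 286 counts (4.45 FPKM) in WT, a log2 fold change of -0.16 (-0.44 to 0.12). *Pfkm*, the muscle type, had 66 counts in KO and 81 in WT (0.29, interval -0.19 to 0.78), and *Pfkp*, the platelet type, had 23 and 33 (0.07, interval -0.76 to 0.88). All 3 intervals held 0. Of 4 markers of skeletal muscle, *Acta1* had 0 counts in both libraries, *Ckm* had 1 in KO and 0 in WT, *Myh4* had 5 in KO and 0 in WT, and *Mylpf* had 19 and 23. The summed FPKM of the 4 was 0.928 in KO and 0.994 in WT as deposited, and 1.14 and 0.807 on the TMM scale.

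Pyruvate kinase makes pyruvate and ATP in the last step of glycolysis. *Pklr*, encoding its liver form, had 432 counts (6.87 FPKM) in KO and 483 counts (7.73 FPKM) in WT, a log2 fold change of 0.43 (0.24 to 0.62). *Pkm*, the form of most other tissues and of proliferating cells, had 171 counts (4.97 FPKM) in KO and 283 counts (8.27 FPKM) in WT, a log2 fold change of -0.13 (-0.42 to 0.14). The liver form thus exceeded the other by 0.57 on the log2 fold change scale, a difference that no scaling of the libraries alters.

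The gluconeogenic enzymes went in both directions. *Pck1*, encoding the cytosolic PEP carboxykinase that draws oxaloacetate into gluconeogenesis (chr2:173153048-173159273), was the most abundant of them. It had 15078 counts (203 FPKM) in KO and 16220 counts (220 FPKM) in WT, a log2 fold change of 0.49 (0.45 to 0.52). *Pck2*, encoding the mitochondrial form, went the other way, with 99 counts (2.20 FPKM) in KO and 254 counts (5.68 FPKM) in WT, a log2 fold change of -0.76 (-1.12 to -0.43). The forms differed by 1.25 on the log2 fold change scale.

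*G6pc*, encoding the glucose 6-phosphatase of liver and kidney that releases free glucose, had 2536 counts (79.3 FPKM) in KO and 3064 counts (96.4 FPKM) in WT, a log2 fold change of 0.32 (0.24 to 0.40). *Fbp1*, encoding the liver fructose bisphosphatase, had 1109 counts (33.6 FPKM) in KO and 2485 counts (75.8 FPKM) in WT, a log2 fold change of -0.57 (-0.68 to -0.47). *G6pc* and *Fbp1* therefore lay 0.89 apart, although both enzymes serve the same outflow of glucose. *G6pc3*, the widely expressed phosphatase, had 115 counts in KO and 152 in WT (0.19, interval -0.17 to 0.55). *G6pc2*, known from pancreatic islets, had 0 counts in both libraries, and *Fbp2*, the muscle form, had 0 in KO and 4 in WT and was not tested. None of the 5 tested gluconeogenic enzymes passed the 2-fold limit. *Pck1* and *G6pc* are among the genes known to respond to the clock and to fasting, and the part of the clock difference between these libraries in their values was not tested.

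Among the shared steps, the main genes of the upper part lay near or above 0. *Gpi1*, encoding glucose phosphate isomerase (chr7:34201330-34230336), had 1453 counts (12.0 FPKM) in KO and 1174 counts (9.75 FPKM) in WT, a log2 fold change of 0.90 (0.79 to 1.01), the largest positive value among the tested members with at least 100 counts in each library. *Aldoa*, the aldolase of muscle and many other tissues, had 859 counts (10.97 FPKM) in KO and 1347 counts (17.3 FPKM) in WT, a log2 fold change of -0.06 (-0.18 to 0.07).

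In the lower part, from triose phosphate to PEP, the main genes other than *Gapdh* lay well below 0. *Tpi1*, encoding triose phosphate isomerase (chr6:124810586-124814296), had 937 counts (17.9 FPKM) in KO and 2833 counts (54.5 FPKM) in WT, a log2 fold change of -1.004 (-1.11 to -0.90). It sits at the 2-fold limit and was not called with upper-quartile scaling. *Pgk1*, encoding phosphoglycerate kinase, had 679 counts (16.8 FPKM) in KO and 1715 counts (42.7 FPKM) in WT, a log2 fold change of -0.74 (-0.87 to -0.62). *Pgam1*, encoding phosphoglycerate mutase, had 548 counts (22.6 FPKM) in KO and 1508 counts (62.6 FPKM) in WT, a log2 fold change of -0.87 (-1.01 to -0.73).

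These 3 enzymes lie close together in the pathway, and so do their fold changes. *Eno1*, encoding the widely expressed enolase, had 351 counts (3.37 FPKM) in KO and 853 counts (8.24 FPKM) in WT, a log2 fold change of -0.69 (-0.87 to -0.51). *Gapdh*, the dehydrogenase between *Tpi1* and *Pgk1*, had 292 counts (2.56 FPKM) in KO and 423 counts (3.73 FPKM) in WT, a log2 fold change of 0.06 (-0.16 to 0.28). *Gapdh* is often used as a reference gene, and it was level with the median of all genes here while its pathway neighbours were lower. *Eno1b*, a near copy of *Eno1*, had 9 counts in KO and 6 in WT (1.10, interval -0.48 to 2.95). Over the 6 tested genes from *Tpi1* to enolase the median log2 fold change was -0.72, and *Gpi1* and *Tpi1* lay 1.90 apart. The grouping into an upper and a lower part was made after the values were seen. The tissue-restricted members *Aldoart1*, *Gapdhs*, *Pgk2*, *Pgam2* and *Eno2* had 0 to 4 counts in either library. *Eno3*, the muscle enolase also expressed in liver, is not assigned to the pathway in the deposited annotation and had 88 counts in KO and 99 in WT (0.42, interval -0.01 to 0.85).

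Several of these genes have near copies elsewhere in the genome, and how the counting split reads between them is not given in the sources used here. Of the 50-base words of the longest transcript, 72.2% occurred in another gene's transcripts for *Eno1*, 68.0% for *Pgk1*, 41.5% for *Pgam1*, 27.8% for *Gapdh*, 27.01% for *Ldhb*, 16.6% for *Ldha*, 10.2% for *Gpi1* and 7.51% for *Tpi1*. Among the pyruvate kinases it was 34.4% for *Pkm* and 23.2% for *Pklr*. Any gene that shared such a word was counted as a copy, so some copies share only a short stretch. With the counts of the listed copies added, the log2 fold change was -0.66 for *Eno1*, -0.86 for *Pgam1*, -1.03 for *Tpi1*, -0.98 for *Ldha* and 0.82 for *Gpi1*. *Gapdh* moved to 0.35 with its 19 listed copies, which held 509 counts in KO and 527 in WT, more than *Gapdh* itself. The summed values of *Eno1b*, *Pck2* and *Pdhb* lay on the other side of 0. *Eno1b* shared 84.5% of its words and stood at -0.66 when summed with *Eno1*. *Pck2* shared only 1.86% of its words, but with 185 listed genes that held 47307 counts in KO and 63575 in WT, and stood at 0.16 when summed with them. *Pdhb*, a subunit of pyruvate dehydrogenase, shared 2.84% of its words and moved from 0.05 to -0.03. *Akr1a1* moved from -0.21 to -0.03 and *Pfkl* from -0.16 to -0.34, without turning. They shared only 1.10% and 0.0543% of their words. The values of *Gapdh* and *Eno1b* are thus uncertain. For *Pck2*, *Pdhb*, *Akr1a1* and *Pfkl* the sum rests in large part on other genes that share a short stretch. It does not show how far reads of those genes entered their values. The values of *Eno1*, *Pgam1*, *Tpi1*, *Ldha* and *Gpi1* moved by less than 0.1. Only copies among the listed genes could be added, such as 1 of 9 for *Eno1*, 2 of 14 for *Ldha* and 2 of 4 for *Pgam1*. *Pgk1* had 1 of 5 copies listed, with 0 counts, *Ldhb* had 0 of 1 listed and *Pkm* had 0 of 8. A small shift therefore does not show that a value is free of reads from copies.

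The promoters of *Ldha*, *Pgk1*, *Pgam1* and *Tpi1* are shown as examples of genes with negative fold changes, beside that of *Gpi1*, which had a positive one. Each is the RefSeq sequence from 250 bases before to 50 bases after an annotated start (GRCm38.p6), read 5′ to 3′ on the gene's strand. Capitals mark ACGTG, the core of elements bound by hypoxia-inducible factors, on either strand, and TGACGTCA, the cAMP response element. CACGTG, the E-box bound by MYC and by ChREBP, holds ACGTG on both strands.
*Ldha* (chr7:46845554-46845853, plus strand): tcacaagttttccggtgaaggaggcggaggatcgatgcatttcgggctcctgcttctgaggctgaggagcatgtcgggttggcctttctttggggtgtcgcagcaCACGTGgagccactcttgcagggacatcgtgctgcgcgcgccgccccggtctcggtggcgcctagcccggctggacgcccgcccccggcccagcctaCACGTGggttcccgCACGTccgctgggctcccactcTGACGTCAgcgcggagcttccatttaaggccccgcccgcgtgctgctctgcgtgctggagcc
*Pgk1* (chrX:106186850-106187149, plus strand): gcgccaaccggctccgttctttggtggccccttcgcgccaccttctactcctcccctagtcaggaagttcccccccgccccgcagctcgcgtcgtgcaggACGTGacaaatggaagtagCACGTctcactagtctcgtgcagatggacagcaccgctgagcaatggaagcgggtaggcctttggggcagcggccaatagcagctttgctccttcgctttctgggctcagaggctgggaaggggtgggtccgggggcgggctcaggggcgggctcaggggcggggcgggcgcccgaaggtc
*Pgam1* (chr19:41911621-41911920, plus strand): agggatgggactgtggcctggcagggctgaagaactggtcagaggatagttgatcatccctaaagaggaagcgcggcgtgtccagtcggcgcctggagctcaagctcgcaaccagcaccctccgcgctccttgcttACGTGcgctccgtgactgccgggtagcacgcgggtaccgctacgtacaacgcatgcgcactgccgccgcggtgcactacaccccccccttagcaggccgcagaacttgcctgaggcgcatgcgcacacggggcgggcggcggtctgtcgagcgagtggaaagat
*Tpi1* (chr6:124814109-124814408, minus strand): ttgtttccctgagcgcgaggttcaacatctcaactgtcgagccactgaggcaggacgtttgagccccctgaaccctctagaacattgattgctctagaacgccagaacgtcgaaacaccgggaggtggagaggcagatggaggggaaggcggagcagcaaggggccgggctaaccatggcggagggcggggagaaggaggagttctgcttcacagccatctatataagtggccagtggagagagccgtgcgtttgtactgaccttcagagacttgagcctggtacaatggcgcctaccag
*Gpi1* (chr7:34230287-34230586, minus strand): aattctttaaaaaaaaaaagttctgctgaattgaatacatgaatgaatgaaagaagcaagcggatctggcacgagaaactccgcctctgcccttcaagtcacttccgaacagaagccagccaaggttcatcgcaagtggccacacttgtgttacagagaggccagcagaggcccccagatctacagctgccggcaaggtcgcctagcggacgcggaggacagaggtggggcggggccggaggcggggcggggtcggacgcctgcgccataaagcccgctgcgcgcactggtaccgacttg
The *Ldha* window holds 2 E-boxes, a further ACGTG core and the cAMP element, and a second annotated start of *Ldha* holds none of them. The *Pgk1* window holds 2 cores and that of *Pgam1* holds 1. The windows of *Tpi1* and *Gpi1* hold 0 cores, although their fold changes were opposite, and so do the 3 annotated windows of *Eno1* (-0.69), which are not printed. Promoters could be matched for 45 members, 60 windows in all. Of these, 36.7% held ACGTG against 19.6% of all 32851 promoters, 6.67% held CACGTG against 7.15%, 1.67% held TGACGTCA against 1.79%, and 10% held TATAAA against 13.6%. Windows of the same gene can overlap and hold the same match, as for *Aldoa*, and base composition was not equalised. These are matches of letters in a window and describe no binding.

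Beyond pyruvate, the lactate dehydrogenase genes lay on opposite sides of 0. *Ldha* (chr7:46841475-46855627), which encodes the main subunit in liver and interconverts pyruvate and lactate, had 2578 counts (42.4 FPKM) in KO and 7690 counts (127 FPKM) in WT, a log2 fold change of -0.98 (-1.05 to -0.92), just inside the 2-fold limit and so not called. With total counts without mitochondrial genes it was called, at -1.07. *Ldhb* (chr6:142490249-142507957), the subunit typical of heart, had 13 counts in KO and 3 in WT, a log2 fold change of 2.49 (0.84 to 5.16). Both counts of *Ldhb* are small, and its FPKM of 0.499 in KO and 0.116 in WT was a small fraction of that of *Ldha* in either library. *Ldhc* and *Ldhal6b*, the germ-cell members of the family, had 0 counts in both.

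The pyruvate dehydrogenase complex, which turns pyruvate into acetyl-CoA, differed between its parts. The subunits of its first enzyme were level, with log2 fold changes of 0.10 for *Pdha1* (394 counts in KO, 556 in WT) and 0.05 for *Pdhb* (456 and 666). The next enzymes of the complex lay below 0, at -0.54 for *Dlat* (178 and 391) and -0.42 for *Dld* (302 and 608). The intervals of *Dlat* (-0.81 to -0.28) and *Dld* (-0.62 to -0.22) were clear of 0, and none of the 4 passed the 2-fold limit.

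Among the other side steps, *Akr1a1*, encoding an aldehyde reductase, had 2076 counts (46.1 FPKM) in KO and 3623 counts (81.0 FPKM) in WT, a log2 fold change of -0.21 (-0.29 to -0.13). *Akr1a1* shared only 1.10% of the words of its longest transcript with other genes. With the counts of the 26 listed genes among these added, the value was -0.03. That sum rests in large part on those other genes. *Bpgm*, which makes bisphosphoglycerate and is known from red cells, had 69 counts in KO and 191 in WT, a log2 fold change of -0.87 (-1.30 to -0.47). Of 5 tested erythroid markers, 4 also lay below 0, the globin genes *Hba-a1* (-0.56), *Hba-a2* (-0.93), *Hbb-bs* (-1.05, called lower) and *Hbb-bt* (-0.59). *Alas2* was called higher (1.22), and the median of the 5 was -0.59. The summed FPKM of the listed markers was 37.5 in KO and 71.0 in WT as deposited (46.2 and 57.6 on the TMM scale). The part of red cells in the value of *Bpgm* was not tested. The remaining tested genes of this class (*Acss2*, *Galm*, *Minpp1*, and *Pgm1* and *Pgm2*, whose symbols are swapped in RefSeq) ranged from -0.74 to 0.10, and *Acss1* and *Pdha2* had no count.

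**Figure D2:**
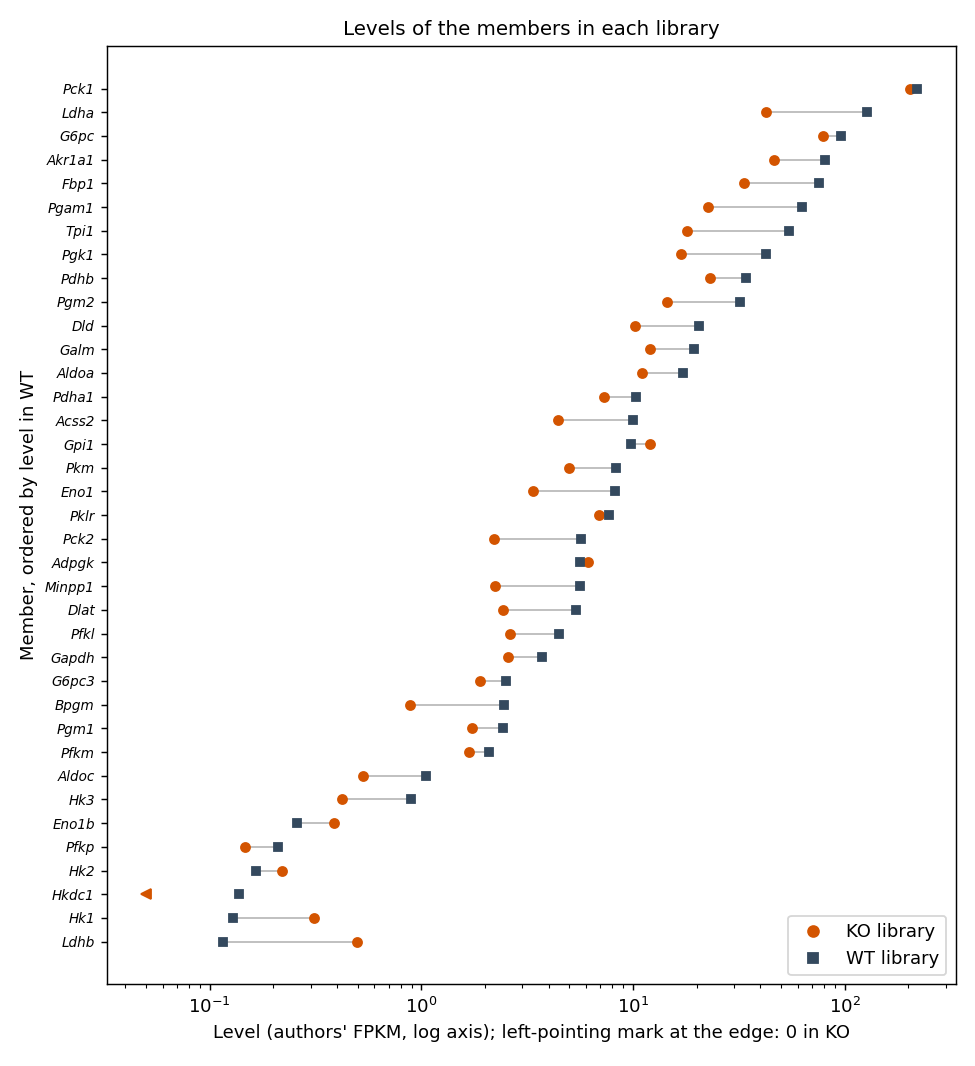
Level of 37 tested members in the KO library (circles) and the WT library (squares), as the authors' FPKM on a log axis, ordered by the WT level, with 1 library per genotype. FPKM are scaled by all counts, mitochondrial genes included, so most members lie lower in KO, while *Gpi1*, *Adpgk*, *Hk1*, *Hk2*, *Eno1b* and *Ldhb* lie higher.

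The choice of isozyme within a step can be read without scaling the libraries, as the share of the summed FPKM of the step. *Pck1* made up 98.9% of the PEP carboxykinases in KO and 97.5% in WT. The cytosolic form thus supplied nearly all PEP carboxykinase transcripts in both livers. *Pklr* had a larger share of pyruvate kinase in KO, 58.0% against 48.3%, and *Pfkl* a smaller share of phosphofructokinase, 59.0% against 66.0%. Both pyruvate kinase genes share sequence with other genes, and no copy of *Pkm* is listed, so the part of copies in this share was not tested.

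Taken from counts, with no correction for length, the share of *Pklr* was 71.6% in KO (exact 95% interval 67.9 to 75.2) and 63.1% in WT (59.5 to 66.5), and these intervals do not overlap. The share of *Pfkl* from counts was 65.6% in KO (59.5 to 71.4) and 71.5% in WT (66.8 to 75.9), and these do overlap. All these intervals cover counting error only, and no difference between mice. The level of a share depends on the length used for each gene. The deposited FPKM rest on a length that counts overlapping exons more than once in most genes, between 0.480 and 4.61 times the longest transcript among the members. Comparisons between genes therefore carry that error, whereas those of the same gene between libraries do not.

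**Figure D3:**
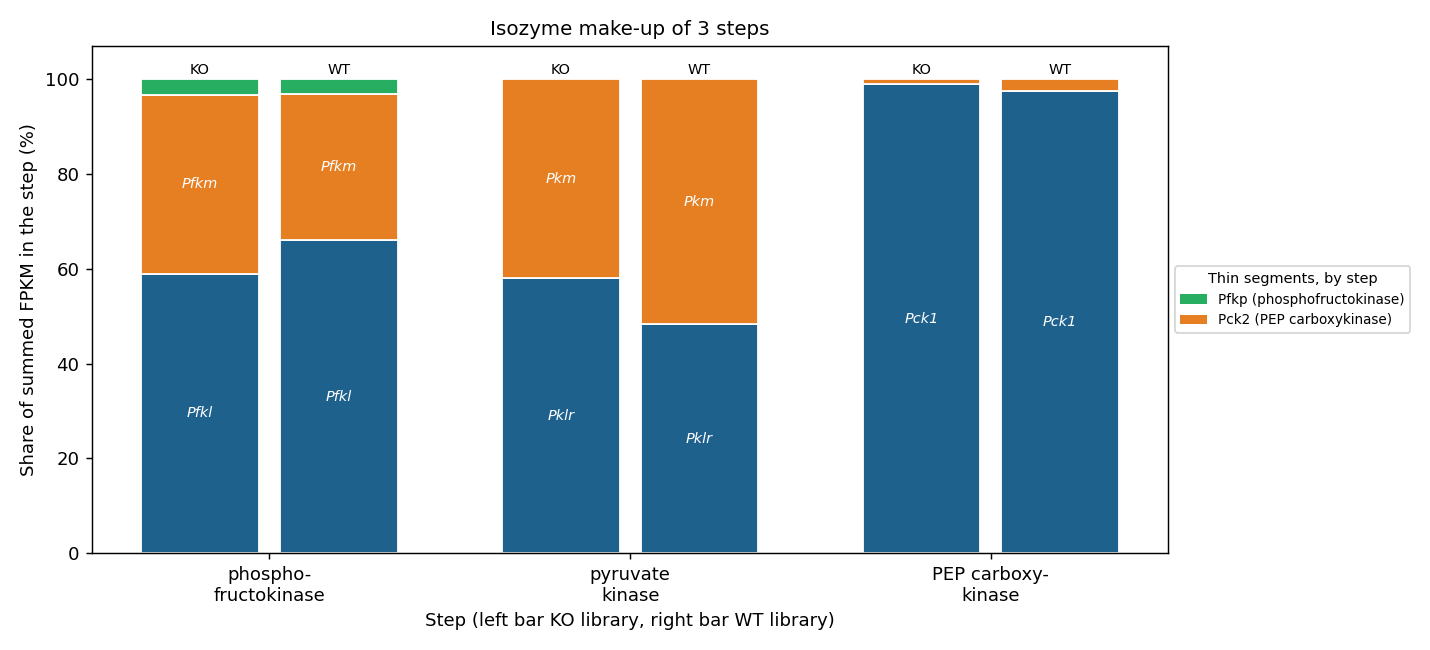
Share of each isozyme in the summed FPKM of 3 steps (y axis, percent), with the KO library in the left and the WT library in the right bar of each pair, 1 library per genotype. *Pck1* fills most of its step in both libraries, and *Pklr* makes up 58.0% of pyruvate kinase in KO and 48.3% in WT.

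Hexokinase 1 and lactate dehydrogenase B are expressed in many non-hepatocyte cells, so markers of these cells are given beside them. Of 4 cholangiocyte markers, *Krt19* (26 counts in KO, 7 in WT) and *Krt7* (15 and 6) were higher in KO, while *Sox9* and *Epcam* were not called, and the summed FPKM of the 4 was 2.64 in KO and 3.21 in WT as deposited, but 3.25 in KO and 2.61 in WT on the TMM scale, so the direction turned with the scaling. Of 6 macrophage markers, *Ptprc* was higher (41 and 15) and *Adgre1* lower (12 and 41), with a summed FPKM of 36.6 in KO and 56.3 in WT as deposited (45.03 and 45.7 on the TMM scale). Of 5 stellate cell markers, 4 lay below 0 (median -0.52) and *Acta2* was called lower (25 and 77). Their summed FPKM was 21.1 in KO and 46.5 in WT as deposited (26.0 and 37.8 on the TMM scale). None of 4 endothelial markers was called. The median of the 6 hepatocyte markers was -0.01. The part of these cells in the values of *Hk1* and *Ldhb* was not tested.

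The genes around the pathway were read from 7 lists with 73 genes, of which 71 were tested. Of these 71, 5 were higher and 2 lower in KO, beside 8.27% higher and 8.64% lower of all genes tested. The median log2 fold change of the 71 was -0.05. In the list of glucose and lactate transport and sensing, *Slc2a2*, the main glucose carrier of hepatocytes, had 675 counts in KO and 897 in WT (log2 fold change 0.18), and *Slc37a4*, which carries glucose 6-phosphate to its phosphatase, had 698 and 786 (0.42). Other carriers went in both directions. *Slc2a1*, the widely expressed glucose carrier, had 89 counts in KO and 238 in WT (-0.82, interval -1.19 to -0.47), and *Slc16a1*, a carrier of lactate, had 362 and 1024 (-0.91, interval -1.08 to -0.73). *Slc16a3*, an exporter of lactate, was the only gene of the 9 tested in this list that was called, with 15 counts in KO and 5 in WT (2.05, interval 0.64 to 3.99).

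Among the enzymes that set the flux by allostery or phosphorylation, 1 gene was called higher and 1 lower. *Pfkfb3*, which makes fructose 2,6-bisphosphate, the activator of phosphofructokinase, had 69 counts in KO and 7 in WT, a log2 fold change of 3.78 (2.77 to 5.26). *Pfkfb1*, the liver form of the same enzyme, had 281 counts (4.15 FPKM) in KO and 517 counts (7.69 FPKM) in WT (-0.29, interval -0.50 to -0.07) and was the form with the highest FPKM in both. *Pdk4*, the kinase that inactivates pyruvate dehydrogenase and is induced by fasting, had 15 counts in KO and 221 in WT, a log2 fold change of -3.25 (-4.15 to -2.54). These were the only genes called among the 10 tested of this list. Neither is a member. The transcripts of the phosphofructokinases, and of *Pdha1* and *Pdhb*, subunits of the enzyme that *Pdk4* inactivates, had log2 fold changes between -0.16 and 0.29. The activity of these enzymes was not measured.

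Of the 10 genes of pyruvate entry and the malate and aspartate shuttles, 8 lay below 0 and none was called, with a median of -0.50. *Pcx*, encoding pyruvate carboxylase, the first enzyme of gluconeogenesis from pyruvate, was level, with 1443 counts in KO and 2117 in WT (0.04, interval -0.06 to 0.14). Of the 14 transcriptional regulators, none was called and the median was 0.27. *Ppargc1a*, a coactivator of the gluconeogenic genes, had 35 counts in KO and 67 in WT (-0.34, interval -0.98 to 0.27). *Mlxipl*, which encodes ChREBP, the glucose-sensing activator of *Pklr*, had 5091 counts in KO and 5339 in WT (0.52, interval 0.47 to 0.58), beside the 0.43 of *Pklr*.

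**Figure D4:**
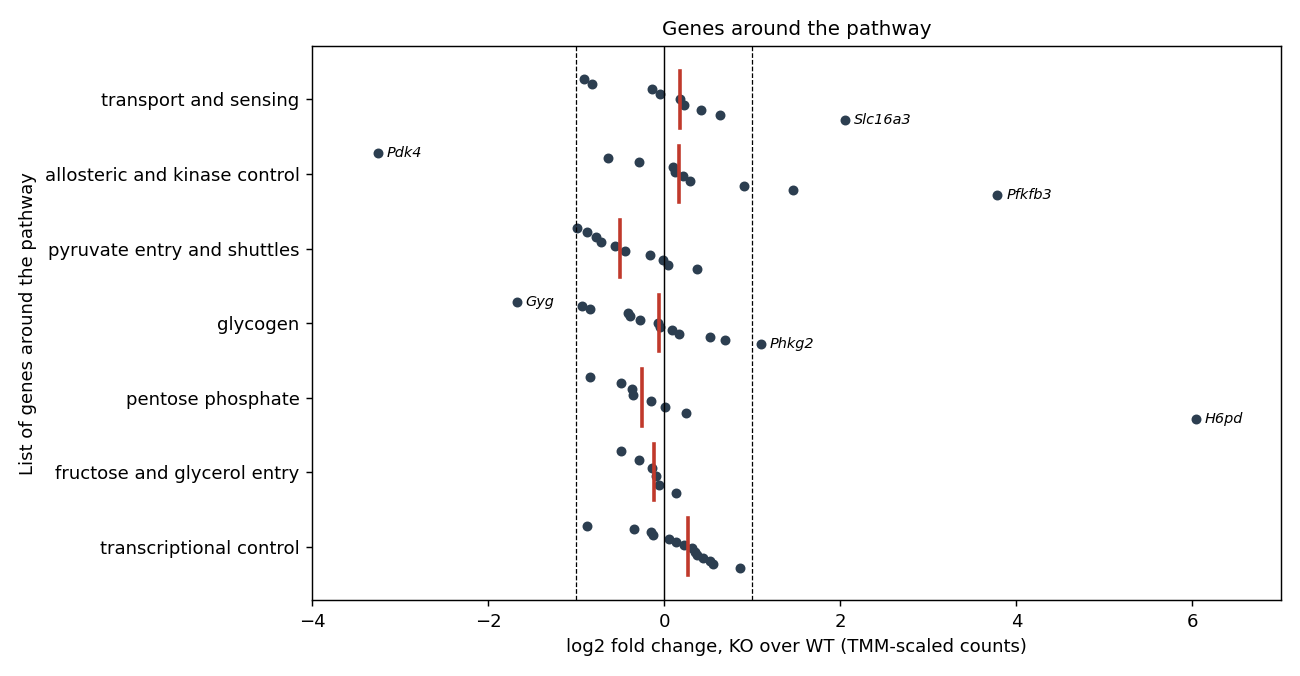
Log2 fold change of KO over WT (x axis, TMM-scaled counts) for 70 tested genes of 7 lists around the pathway (y axis), with 1 library per genotype. Each point is a gene, red bars are list medians, dashed lines mark the 2-fold limits, and the 6 called genes plotted are named, from *Pdk4* at -3.25 to *H6pd* at 6.04.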

How the data were processed

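Livers of 1 KO and 1 WT library were compared. Per the submitters' processing notes, the tools were HISAT2 2.0.4, StringTie and edgeR, and the notes name the build hg38, although the table lists mouse Ensembl genes; 34267 identifiers are in GENCODE M21 (GRCm38) and 40 of the 50 members have the same coordinates there. The deposited table gives raw, unnormalized read counts, and the authors' FPKM, scaled by each library's total count. Scale factors came from edgeR 4.0.16 and DESeq2 1.42.0 in R 4.3.3, and the remaining steps were run in Python 3.11.15 with numpy 2.4.6, pandas 2.3.3 and scipy 1.17.1, with matplotlib 3.10.9 for figures. A gene needed 10 counts over the libraries together to be tested. Log2 fold changes used a prior count of 0.5, with exact (Clopper-Pearson) 95% intervals that cover counting error only. No p-value was computed, since 1 library per genotype leaves no spread between replicates. A KO count of 0 was set to a floor of 3 counts for fold limits. Alternatives were total counts, DESeq2 size factors, upper quartile, totals without mitochondrial genes, a prior count of 5, FPKM with pseudocounts of 0.1 and 1, minimums of 1 and 50 counts, a 1.5-fold limit, the core chain alone, *Eno1* and *Eno1b* summed, and shares from counts. Shares per length of the longest transcript were an addition made once the values were known. The steps were tested on simulated data. Members, lists and the named genes were chosen with earlier results of these data known. Named were members past the 2-fold limit, the most abundant member of each class and the main isozymes of each step whatever their values; genes of the neighbouring lists were named past the 2-fold limit or as main regulators. *Adpgk*, *Minpp1*, *Galm*, *Pgm1*, *Pgm2* and *Acss2*, the promoters and the clock, Y-linked and *Xist* genes were added after the values were seen. Some genes that enter the counts and medians are not reported here by name or shown in the figures.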

Additional observations from a re-analysis of the deposited data

How the results depend on the processing

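No paired analysis was possible because there is only 1 library of either genotype, and so no replicate could be left out. No result reversed a call. DESeq2 size factors, a prior count of 5 and totals without mitochondrial genes moved no count of members by over 1.5 times and turned no class median. With total counts, 15 members were lower, 489 genes were higher and 3407 lower, and the medians were -0.70 (members), -0.48 (glycolytic), -0.41 (gluconeogenic) and -0.82 (shared), since the median of all genes moved by -0.60. With the deposited FPKM, also scaled by total counts, and a pseudocount of 0.1, 1 member was higher and 14 lower, 372 genes were higher and 2883 lower, and these medians were -0.69, -0.34, -0.39 and -0.76. A pseudocount of 1 gave 0 members higher and 10 lower, 104 genes higher, and medians of -0.50 (members) and -0.28 (gluconeogenic). Of the 34 named members tested, 17 lay above 0 with TMM and 6 with total counts. Upper-quartile scaling left 1 member lower, without *Tpi1*. A minimum of 1 count admitted *Fbp2* and turned the gluconeogenic median to -0.19, its difference from the glycolytic median to -0.31 and the shared median to 0.000449. The core chain alone turned the median of the members to 0.06, and summing *Eno1* and *Eno1b* moved the shared median from -0.22 to -0.39. A minimum of 50 counts dropped scarce genes and left 1 member higher and 1 lower, with 642 genes higher and 766 lower. It also moved the shared median to -0.39. A 1.5-fold limit gave 4 members higher and 9 lower, and 2076 and 2132 genes. The gain in the share of *Pck1* in KO, 1.45 percentage points, was 0.890 from counts and 0.529 per length of the longest transcript. With 1 library per genotype, no value separates the genotype from other differences between the livers, the mitochondrial share and the clock included. Scarce genes such as *Ldhb*, *Hkdc1* and *Hk2* are limited by depth.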

Other observations

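The neighbouring branches of sugar metabolism are described here from lists chosen with earlier results of these data known. For comparison, 8.27% of all genes tested were called higher and 8.64% lower in KO. Of 14 glycogen genes tested, 2 were higher and 1 lower in KO, with a median log2 fold change of -0.06. *Phkg2*, the catalytic subunit of liver phosphorylase kinase, had 721 counts in KO and 507 in WT (1.10, 95% counting interval 0.93 to 1.27). *Gyg*, which encodes glycogenin, the primer of glycogen, had 13 counts in KO and 64 in WT (-1.68, interval -2.69 to -0.83). The main liver enzymes were not called: *Pygl*, the liver phosphorylase, had 1312 counts in KO and 2045 in WT (-0.05), and *Gys2*, the liver synthase, had 889 and 938 (0.51).

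Of 8 pentose phosphate genes, 1 was called and the median was -0.26. *H6pd*, the glucose 6-phosphate dehydrogenase of the endoplasmic reticulum, had 2519 counts (32.3 FPKM) in KO and 57 counts (0.736 FPKM) in WT, a log2 fold change of 6.04 (5.68 to 6.46), while the cytosolic genes of the branch lay between -0.85 and 0.24. Of 6 genes of fructose and glycerol entry, none was called, and the values ranged from -0.50 to 0.13. Among hepatocyte zonation markers, none of the 6 pericentral (median 0.05) and none of the 6 periportal genes (median -0.22) was called. Of 4 neutrophil markers, *Ly6g* had 0 counts in both libraries and *Mpo* had 0 in KO and 1 in WT, and the other two, *S100a8* and *S100a9*, were not called.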
